A study of Mus musculus with 2 samples.

Results

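The DEAD and DEAH box RNA helicases are described here across 2 RNA-seq libraries of mouse leukemia stem cells. Members were the autosomal protein-coding genes whose symbol starts with Ddx or Dhx in the GENCODE M21 annotation. Of 54 rows with such a symbol, 1 was not protein-coding, 2 were sex-linked and 1 was not analysed here, which left 50 genes, 34 Ddx and 16 Dhx, of 20337 autosomal protein-coding genes. They lie on 14 chromosomes. The cells came from adult mice infected with Friend virus, a retrovirus complex that causes erythroleukemia, and are labelled as positive for Kit, Sca1, CD34 and CD133. Males and females of 10 to 12 weeks were pooled, from an unnamed strain that must carry the sensitive allele of Fv2. The 2 libraries, biological replicates 1 and 2 of the single group, have different biosamples and 1 shared donor record, so their spread may be partly technical. With 1 group nothing was compared between conditions and no p-value was computed. The ratio between the libraries is described instead.

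DEAD and DEAH box proteins share a core of RecA-like domains that binds RNA and ATP, and are named after the amino acid letters of the motif that couples ATP hydrolysis to the opening of RNA duplexes or the removal of proteins from RNA. DEAD box proteins pry apart short duplexes locally, whereas DEAH box proteins move along a strand. In blood cells, as elsewhere, they act at each step of the life of an RNA, in the spliceosome, at the nuclear pore, in the nucleolus, during translation and decay, and in the sensing of viral nucleic acid.

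Replicate 1 held 23575315 expected counts and replicate 2 held 22541765. The sort markers were scarce as RNA: Cd34 had 1.80 TPM (the deposited share of transcripts, corrected for transcript length) in replicate 1 and 0.27 TPM in replicate 2, Kit had 1.81 and 1.06 TPM, Ly6a, which encodes Sca1, had 1.45 and 2.15 TPM, and Prom1, which encodes CD133, had 0.06 and 0 TPM. Markers of several cell types were present beside them. All 8 erythroid markers reached 1 TPM in both libraries, and their summed level was 89844 TPM in replicate 1 and 153871 TPM in replicate 2. The macrophage list had 4 of 6 markers at that level with sums of 842 and 1222 TPM, the B lineage list 4 of 5 with 692 and 280 TPM, and the neutrophil list 4 of 5 with 45.9 and 26.9 TPM. Of the T and NK list 2 of 4 reached it (21.7 and 26.5 TPM), and of the endothelial list 1 of 3 (9.33 and 3.06 TPM). Whether these markers came from the labelled cells or from other cells mixed with them was not tested. The part of any such mixture in the helicase levels was not tested either. In bulk RNA fewer cells of a type and less RNA per cell cannot be told apart.

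Most helicase genes were transcribed at a moderate level. In both libraries 43 of 50 members (86.0%) reached 1 TPM, beside 42.8% of all autosomal protein-coding genes. Their median level was 11.4 TPM, beside 0.670 TPM over all autosomal protein-coding genes, and 26 members (52.0%) had a mean of 10 TPM or more, beside 26.2%. On the log2(TPM + 1) scale the medians were 3.53 and 0.71. A mean of 100 TPM was reached by 2 members, Ddx5 and Ddx39b, while 18 had a mean between 1 and 10 TPM. The levels of the libraries correlated over the 50 genes with a Pearson r of 0.955 and a Spearman rho of 0.923 on the log2(TPM + 1) scale, against 0.944 and 0.933 over the 14711 genes above 0. These correlations run across genes, which are not independent replicates.

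**Figure D1:**
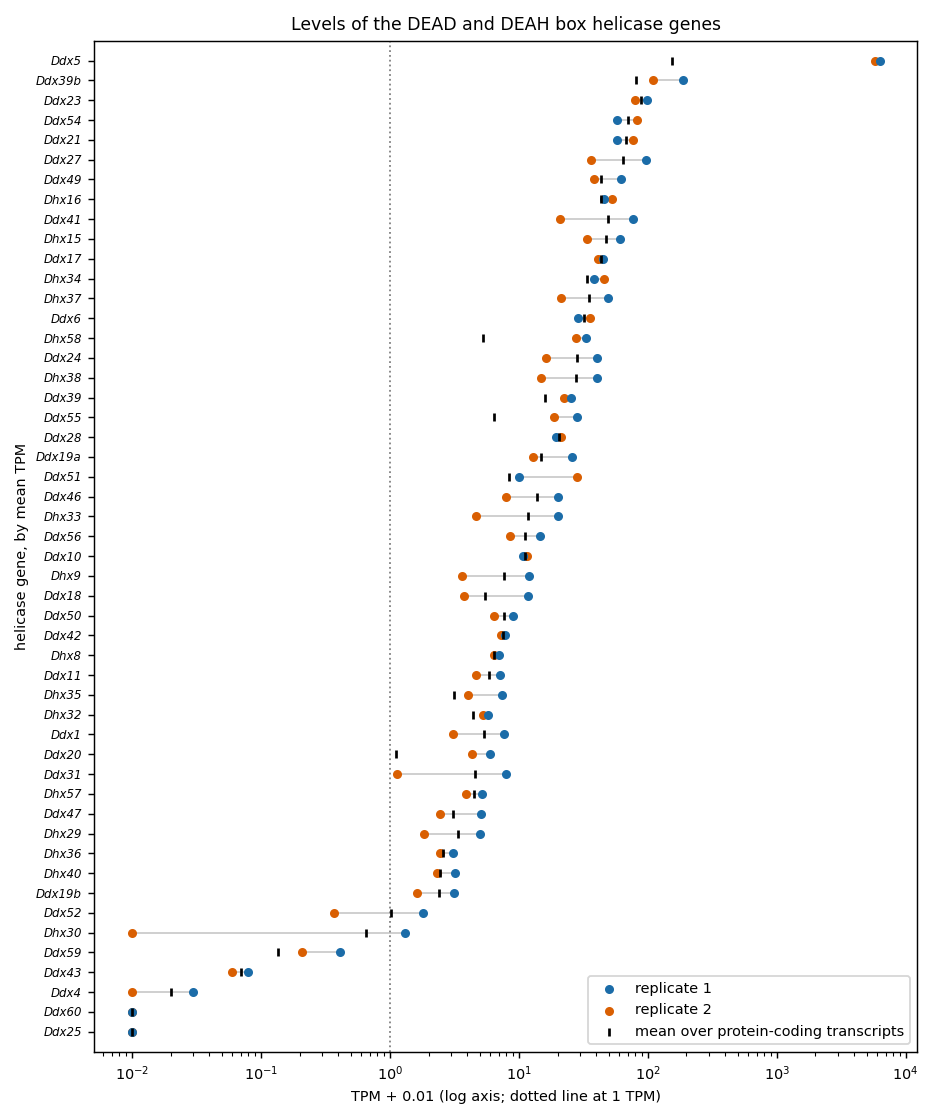
Level of each of the 50 helicase genes in replicate 1 (blue) and replicate 2 (orange) as TPM + 0.01 on a log axis, ordered by mean TPM, with a tick for the mean over transcripts annotated as protein-coding. Ddx5 stands far to the right at 6288 and 5848 TPM while its tick lies at 155 TPM, and the 7 lowest genes fall under 1 TPM in at least 1 library.

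By gene TPM, with all transcripts of each gene included, a single gene held most of the family. Ddx5 (ENSMUSG00000020719.10, chromosome 11, 106780355 to 106789185, minus strand, mm10) encodes a DEAD box protein, also called p68, that acts in splicing, as a transcriptional coregulator and in the nuclear processing of microRNA precursors. It had 6288.02 TPM in replicate 1 and 5848.08 TPM in replicate 2, a mean of 6068 ± 311 TPM (SD, n = 2), and ranked 11 among the autosomal protein-coding genes. The libraries were close in this value. In counts scaled between the libraries (described below), the Ddx5 log2 ratio of replicate 1 over replicate 2 was -0.35. All 50 members summed to 7601 TPM in replicate 1 and 6785 TPM in replicate 2, of which Ddx5 held 82.7% and 86.2%. The other 49 genes together had 1313 and 937 TPM, which is 0.131% and 0.0937% of all TPM. In expected counts, which are not corrected for length, Ddx5 held 50.1% and 55.3% of the family.

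The Ddx5 level rested on 2 short transcripts that are not annotated as coding for the full protein. Ddx5-205, 879 bases long and of the type nonsense-mediated decay (transcripts with an early stop codon that the cell degrades), had 3723.01 TPM in replicate 1 and 3439.21 TPM in replicate 2. Ddx5-203, a processed transcript of 496 bases with no annotated reading frame, had 2418.90 and 2238.00 TPM. Together they held 97.68% of the TPM of the gene in replicate 1 and 97.08% in replicate 2. The full-length transcript Ddx5-201, of 3559 bases and 13 exons, had 6.11 and 2.50 TPM, which is 0.10% and 0.04% of the gene.

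These transcripts differ from the full-length one by their splice junctions, and 30 bases around the junction that is particular to each short transcript among those of Ddx5 are shown beside the junction of exons 2 and 3 in Ddx5-201. The last 15 bases of the upstream exon are in lower case and the first 15 of the downstream exon in capitals. The sequences are those of the transcript on the minus strand of chromosome 11 of mm10. Ddx5-201 joins its exon 2 (106786909 to 106787074) to exon 3 (106786448 to 106786544), with 364 bases spliced out. Ddx5-203 has a shortened exon 3 (106786499 to 106786544) that runs on into an exon of 89 bases (106783312 to 106783400) which Ddx5-201 lacks, with 3098 bases spliced out. Ddx5-205 joins exon 2 to a slightly shortened exon 12 (106782469 to 106782684, 216 bases in place of 225). Between them 4224 bases are spliced out, so that exons 3 to 11 are missing.
Ddx5-201: gcaaggcgcaccgcaCAAGAGGTAGATACA
Ddx5-203: aaattacagttagagGACCAACTTCTCACA
Ddx5-205: gcaaggcgcaccgcaATGTGAAATTTGTCA

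The junction of Ddx5-201 is also present in Ddx5-203, Ddx5-204, Ddx5-206 and Ddx5-208, and those of Ddx5-203 and Ddx5-205 occur in no other Ddx5 transcript. Outside its junction Ddx5-205 has little sequence of its own. Of its 855 words of 25 bases, 24 occur in no other Ddx5 transcript and 97.2% occur in Ddx5-201. Of the 472 words of Ddx5-203, 21 were its own and 81.4% occur in Ddx5-201, whereas Ddx5-201 has 1253 of 3535 words to itself. The tables hold an estimate per transcript and not where fragments lay, so how many fragments crossed each junction was not measured here.

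The same division was present in the estimated counts. Ddx5-205 had 54906 counts in replicate 1 and 50427 in replicate 2, Ddx5-203 had 17372 and 15797, and Ddx5-201 had 413 and 170. Among transcripts annotated as protein-coding the shortened Ddx5-206 led, with 117.64 TPM in replicate 1 and 129.70 TPM in replicate 2, followed by Ddx5-204 with 16.74 and 38.13 TPM. Ddx5-208, a second transcript of the nonsense-mediated decay type, had 4.77 and 0.29 TPM. Ddx5-209 had 0.85 and 0 TPM, Ddx5-207 had 0 and 0.25 TPM, and Ddx5-202 was listed at 0 in both libraries.

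**Figure D2:**
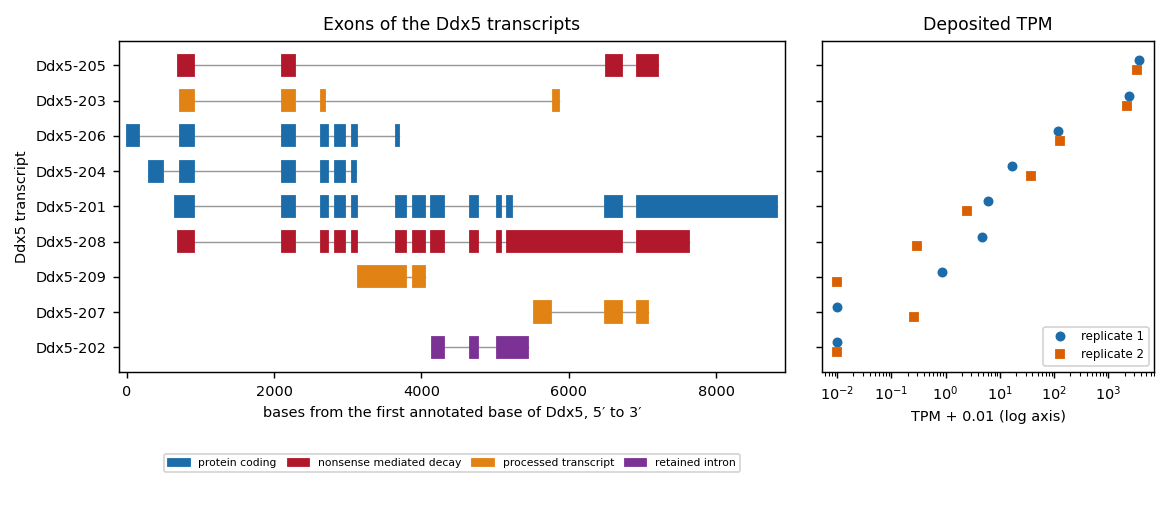
Exon map of the 9 Ddx5 transcripts, in bases from the first annotated base of the gene, beside the deposited TPM of each in replicate 1 (circles) and replicate 2 (squares) as TPM + 0.01 on a log axis. Ddx5-205 and Ddx5-203 have 4 exons each and the highest levels in both libraries, 2238.00 TPM or more, and the full-length Ddx5-201 lies at 6.11 and 2.50 TPM.

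How far Ddx5 stood above the next members, Ddx39b and Ddx23, depended on this division. By gene TPM its level was 33.5-fold that of Ddx39b in replicate 1 and 53.3-fold in replicate 2, and 63.4-fold and 73.0-fold that of Ddx23. With all counts of each gene set over the length of its longest coding transcript the folds were 10.2 and 16.3 over Ddx39b and 11.7 and 13.1 over Ddx23. With coding transcripts alone they were 1.13 and 4.37 over Ddx39b and 1.43 and 2.14 over Ddx23. Ddx5 ranked first among the 50 genes by each of the 3 measures of mean level, at 6068, 1060 and 155 TPM. The 6068 and 1060 TPM include the counts of Ddx5-205 and Ddx5-203. The 155 TPM lay mainly on the shortened Ddx5-206, with a mean of 124 TPM, and the full-length Ddx5-201 had a mean of 4.3 TPM. The first rank is thus not one of the full-length transcript. The processed pseudogene Gm12183 shares 1214 words of 25 bases with Ddx5 and had 7.07 and 0 counts. In all, 24.1% of the words of Ddx5 occur in other genes. Among them are 535 of the 855 words of Ddx5-205 and 181 of the 472 words of Ddx5-203. The division of fragments between Ddx5 and those genes is uncertain for that reason. The microRNA genes Mir3064 and Gm25994, which lie within Ddx5, had 0 counts in both libraries.

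Ddx5 has 3 annotated starts in the RefSeq promoter table (GRCm38.p6). The bases of chr11:106788495-106788744, minus strand, are shown because the short transcripts start beside them: the start at 106788494, which is that of Ddx5-208, lies 6 bases before that of Ddx5-205. Capitals mark the motif TATAAA, 30 bases before the start. The full-length Ddx5-201 starts within this stretch, at 106788532, so the motif lies inside its annotated exon 1. Exon 1 of Ddx5-204 (106788699 to 106788883) also overlaps the stretch.
Ddx5 promoter: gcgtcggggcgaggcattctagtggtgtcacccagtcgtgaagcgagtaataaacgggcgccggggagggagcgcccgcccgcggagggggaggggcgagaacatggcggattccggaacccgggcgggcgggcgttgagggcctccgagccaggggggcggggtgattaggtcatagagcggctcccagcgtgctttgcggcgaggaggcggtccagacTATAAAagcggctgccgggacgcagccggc

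The start at 106789185 is that of Ddx5-206 and lies 697 bases from the start of Ddx5-205. The third, at 106788907, has the motif CACGTG in the 250 bases before it.

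The 12 helicases of pre-mRNA splicing were all above 1 TPM in both libraries, with a median of 45.1 TPM. Ddx39b, an ATPase of the early spliceosome and of the TREX complex that couples splicing to export, was second in the family by gene TPM, with 187.72 TPM in replicate 1 and 109.80 TPM in replicate 2 (149 ± 55.1 TPM, SD, n = 2). Ddx23, which swaps the U1 snRNP for U6 at the 5′ splice site, had 99.15 and 80.13 TPM (89.6 ± 13.4 TPM). Replicate 1 was the higher by TPM in both genes. In scaled counts the log2 ratio of replicate 1 over replicate 2 was 0.34 for Ddx39b and -0.18 for Ddx23.

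The DEAH box members that drive successive steps of the spliceosome differed in level. Dhx16, which activates the spliceosome for its first reaction, had 45.59 TPM in replicate 1 and 53.01 TPM in replicate 2, and Dhx38, which acts between the reactions, had 40.43 and 14.83 TPM. Dhx8, which releases the spliced mRNA, had 7.04 and 6.45 TPM, and Dhx15, which takes the spent complex apart, had 60.70 and 33.57 TPM. Dhx8 was thus the lowest of these 4 in each library.

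Of the remaining splicing members, Ddx17 is the nearest relative of Ddx5, with which it shares roles in splicing and microRNA processing. It had 44.79 TPM in replicate 1 and 41.51 TPM in replicate 2, all on 1 coding transcript. Ddx41, mutated in inherited myeloid neoplasms in humans, had 77.67 and 20.88 TPM, so its libraries lay far apart. Ddx46, which acts at the branch site, had 20.02 and 7.93 TPM. Ddx42, a binding partner of SF3B proteins, had 7.79 and 7.24 TPM. Dhx35, found in catalytic spliceosomes, had 7.42 and 4.06 TPM.

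Among the 5 members of mRNA export, which include Ddx39b, Ddx39 encodes a protein very like that of Ddx39b and had 25.65 TPM in replicate 1 and 22.46 TPM in replicate 2. Ddx19a, which releases export factors at the nuclear pore, had 26.09 and 12.91 TPM, and its neighbouring copy Ddx19b had 3.16 and 1.61 TPM. Ddx19a shares 33.6% of its words of 25 bases with other genes, almost all with Ddx19b, and Ddx19b shares 15.6%, so the division of fragments between these 2 genes is uncertain. Ddx25, a testis helicase, had 0 counts in both libraries.

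The 16 members of the nucleolus and of ribosome assembly had a median of 15.8 TPM, and 15 of them reached 1 TPM in both libraries. Ddx54, a factor of the large subunit, had 57.87 TPM in replicate 1 and 83.17 TPM in replicate 2 (70.5 ± 17.9 TPM), and Ddx21, which links transcription of ribosomal DNA to the processing of its RNA, had 57.83 and 77.17 TPM (67.5 ± 13.7 TPM). Both were higher in replicate 2. Ddx27, another factor of ribosomal RNA processing, had 96.55 and 36.28 TPM (66.4 ± 42.6 TPM), and Ddx49 had 61.68 and 38.57 TPM (50.1 ± 16.3 TPM). The ranges of these 4 genes overlapped, so their order by mean does not separate them beyond the spread of the libraries.

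Dhx37, which frees the U3 snoRNA from the small subunit, had 49.17 TPM in replicate 1 and 21.33 TPM in replicate 2, and Ddx24 had 40.18 and 16.24 TPM. Ddx55 had 28.19 and 18.73 TPM, and Ddx51 had 10.09 and 28.28 TPM. Dhx33, which acts in ribosomal DNA transcription, had 20.03 and 4.65 TPM, Ddx56 had 14.68 and 8.61 TPM and Ddx10 had 10.86 and 11.60 TPM. Ddx51 was the only 1 of these 7 genes in which replicate 2 was more than 2-fold higher by TPM.

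Ddx18 had 11.84 TPM in replicate 1 and 3.76 TPM in replicate 2, but 69.3% of its words of 25 bases occur in other genes, mostly in the pseudogene Gm16433, and its level is uncertain for that reason. Ddx50, the neighbour and close relative of Ddx21, had 9.01 and 6.37 TPM, with 10.7% of its words shared. Ddx31 had 8.00 and 1.13 TPM, Ddx47 had 5.12 and 2.45 TPM, and Ddx52 had 1.81 and 0.36 TPM, the only nucleolar member under 1 TPM in a library. Over the family 43 members shared under 5% of their words with other genes. Exons of 11 members overlap those of a gene on the other strand, and in 8 of these the other gene had counts. The longest such overlaps were 895 bases of Ddx39 with Adgre5 (2752 counts in replicate 1 and 1631 in replicate 2) and 874 bases of Ddx49 with Homer3 (387 and 455 counts). Whether fragments were assigned by strand is not given in the sources used here, so values of these members are uncertain there.

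In the translation, storage and decay of mRNA, Dhx34, a factor of nonsense-mediated decay, had 38.39 TPM in replicate 1 and 45.77 TPM in replicate 2 (42.1 ± 5.22 TPM). Ddx6, which represses translation and promotes decapping in P bodies, had 28.74 and 35.54 TPM (32.1 ± 4.81 TPM). Dhx29, which helps the small ribosomal subunit scan structured leaders, had 4.96 and 1.84 TPM, and Dhx36, which unwinds G-quadruplexes, had 3.11 and 2.46 TPM. The first pair were higher in replicate 2 by TPM and the second pair in replicate 1. In scaled counts the log2 ratio of replicate 1 over replicate 2 was 0.95 for Dhx29 and -0.28 for Dhx36.

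The 2 members of mitochondrial ribosome assembly were far apart in level. Ddx28, a gene of 1 coding transcript, had 19.61 TPM in replicate 1 and 21.30 TPM in replicate 2. Dhx30 had 1.30 TPM in replicate 1, from 91.94 expected counts, and was listed at 0 in replicate 2. The authors' posterior mean counts of Dhx30 were 114 in replicate 1 and 14.9 in replicate 2, so the listed 0 depends on the estimate and no size is given for a ratio against it. Dhx30 overlaps 123 bases of Smarcc1 on the other strand, which had 9292 counts in replicate 1 and 6553 in replicate 2.

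Members with a part in nucleic acid sensing were transcribed, with 1 exception. Dhx58, which encodes LGP2, a regulator of antiviral RNA receptors, had 33.00 TPM in replicate 1 and 27.58 TPM in replicate 2. Dhx9, a helicase of double-stranded RNA, had 12.00 and 3.64 TPM, and Ddx1, also a part of the tRNA ligase complex, had 7.67 and 3.06 TPM. Ddx60, which interferon induces, had 0 counts in both libraries, where 3 counts on its longest coding transcript, an upper limit for counting error only, would be 0.0259 and 0.0258 TPM. The authors' posterior mean TPM of Ddx60 was 0.60 and 0.61, although no fragment was assigned to it.

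The 3 germ line members were at or near 0. Ddx43, a cancer-testis gene in humans, had 0.07 TPM in replicate 1 and 0.05 TPM in replicate 2, from 3 and 2 counts, and Ddx4, the germ cell helicase Vasa, had 0.02 and 0 TPM, from 1 and 0 counts. Ddx25, already named under export, had 0 counts. None of the 3 exceeded the level of 3 counts, which for Ddx25 is 0.0948 TPM in each library.

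The 7 members with other roles lay between 0.30 and 5.92 TPM in mean. Ddx11, a DNA helicase of sister chromatid cohesion, had 7.18 TPM in replicate 1 and 4.65 TPM in replicate 2, Dhx32 had 5.79 and 5.32 TPM, and Ddx20, a subunit of the SMN complex that assembles snRNPs, had 6.01 and 4.37 TPM. Dhx57 had 5.15 and 3.87 TPM and Dhx40 had 3.18 and 2.32 TPM. Ddx59 had 0.40 and 0.20 TPM and was the only member of this group under 1 TPM. Replicate 1 was the higher in all of these TPM values, and the median log2 ratio of TPM over all genes tested was 0.44 in that direction. In scaled counts the log2 ratio was above 0 for Ddx11 (0.15) and Ddx20 (0.08). It was below 0 for Dhx32 (-0.22), Dhx57 (-0.08) and Dhx40 (-0.27), and Ddx59 had 6 and 8 counts.

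The transcript classes of the other helicases were mostly coding. Among the 43 members at 1 TPM or more, the median share of TPM on protein-coding transcripts was 97.8%, beside 99.2% over all genes at that level. A mean coding share under 50% was present in 5 of the 43 (11.6%), namely Ddx5, Dhx58, Ddx55, Dhx35 and Ddx20, beside 21.0% of all genes at that level. In 20 members the TPM lay wholly on coding transcripts in both libraries, and 17 of the 50 genes have a single transcript in the tables, where no other outcome was possible.

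Besides Ddx5, the genes led by a transcript not annotated as coding in both libraries were Dhx58, Ddx55 and Ddx20. In Dhx58 the processed transcript Dhx58-206 held 74.6% of the TPM in replicate 1 and 82.2% in replicate 2, so the coding transcripts came to 6.03 and 4.52 TPM. In Ddx20 the retained-intron transcript Ddx20-202 held 68.8% and 92.1%, which left 1.87 and 0.34 TPM on the coding one. In Ddx55 the coding transcripts held 36.7% and 13.9%. Each of these genes thus had a coding level well under its gene level in both libraries.

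A further 4 genes were led by a coding transcript in replicate 1 and by another kind in replicate 2, and none the other way round. The same count was not made over all genes, so this direction is not read as particular to the helicases. The retained-intron transcript Ddx39b-204 held 57.2% of Ddx39b in replicate 2, Ddx19a-203 held 67.8% of Ddx19a and Ddx51-203 held 73.7% of Ddx51. In Dhx35 the leader in replicate 2 was the processed transcript Dhx35-204, with 42.7%, from only 12.86 expected counts. The coding level of Ddx39b was 124.40 TPM in replicate 1 and 38.97 TPM in replicate 2, a wider gap than in its gene TPM. For Ddx51 the coding transcripts had 9.43 and 7.44 TPM, so the higher gene TPM of replicate 2 was not present on them.

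**Figure D3:**
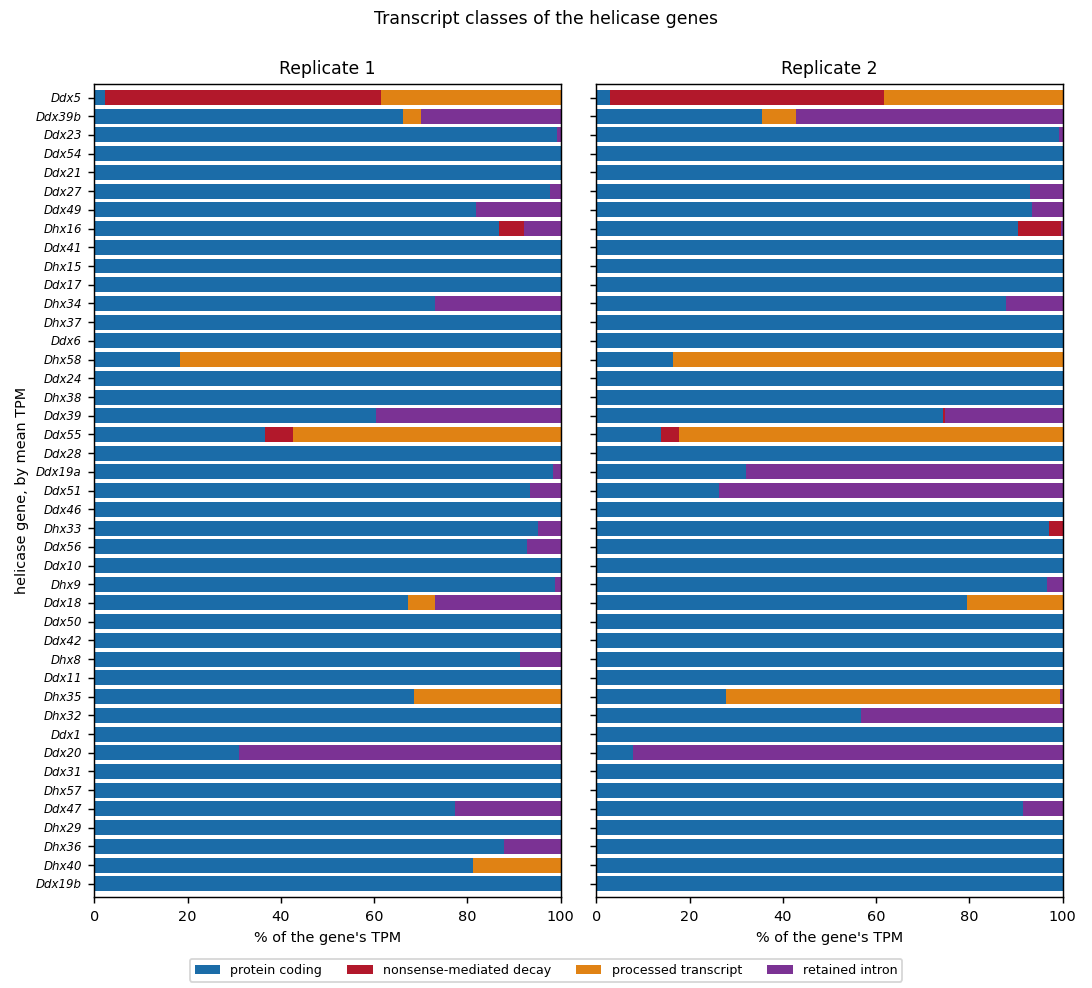
Share of the TPM of each gene on protein-coding, nonsense-mediated decay, processed and retained-intron transcripts, in percent, for the 43 helicase genes at 1 TPM or more in both libraries (replicate 1 left, replicate 2 right, ordered by mean TPM). Ddx5 has 2.23% and 2.91% on coding transcripts, and Ddx39b, Ddx19a, Ddx51 and Dhx35 have a smaller coding share in replicate 2.

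The ratio between the libraries was taken from expected counts after TMM scaling, as log2 of replicate 1 over replicate 2, with an exact 95% interval that covers counting error only. A gene was called apart where this interval lay wholly outside 2-fold, among genes with 20 or more summed counts. Of 45 helicase genes tested, 8, or 7 without Dhx30, were apart with the higher value in replicate 1 (17.8%), beside 14.5% of all autosomal protein-coding genes tested, and 0 were apart with the higher value in replicate 2, beside 8.42%. The median ratio was 0.15 over the helicases and 0.05 over all genes tested, and 26 of the 45 (57.8%) lay above 0, beside 51.8% of all genes tested. The median size of the ratio, whatever its sign, was 0.60 over the helicases and 0.73 over all genes tested. With 2 libraries of 1 group these numbers describe the libraries and not a condition.

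Leaving out Dhx30, the largest ratio was that of Ddx31, with 496 counts in replicate 1 and 70 in replicate 2 (log2 ratio 2.35, 95% interval 1.99 to 2.74). Ddx52, with 102 and 22 counts, had 1.72 (1.07 to 2.48), and Dhx33, with 1958 and 454 counts, had 1.64 (1.49 to 1.79). These 3 are nucleolar members, of which 3 of 16 were apart (18.75%), beside 5 of the other 29 helicases tested (17.2%). The role is therefore not read as particular to the genes apart. Dhx35 had 414 and 97 counts and a ratio of 1.62 (1.30 to 1.96), and Ddx19a had 1230 and 301 counts and a ratio of 1.56 (1.38 to 1.75). Ddx41 had 3180 and 856 counts and a ratio of 1.42 (1.31 to 1.53), and Dhx9 had 1054 and 318 counts and a ratio of 1.26 (1.08 to 1.44). Dhx30 was apart with its listed 0 and also with the posterior mean counts (2.42, 1.67 to 3.34).

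The calls depended on the scaling and on the limit. With total-count scaling 16 of 45 helicases were apart with the higher value in replicate 1 and 0 with the higher value in replicate 2, beside 22.7% and 3.20% of all genes tested, while the median over all genes moved to 0.45. With the ratio of deposited TPM the numbers were 14 and 1, the last being Ddx51, beside 23.7% and 3.99% of all genes, and the median over all genes was 0.44. Dhx35 and Ddx19a were then no longer apart, at 0.87 and 1.01. Under a 1.5-fold limit 16 and 5 helicases were apart, beside 22.9% and 18.4% of all genes, with Ddx21, Ddx54, Ddx6, Dhx16 and Dhx34 higher in replicate 2.

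By role, the nucleolar members had a median log2 ratio of 0.65 with 12 of 16 above 0, and the other 29 helicases tested had a median of -0.06 with 14 above 0. Over all genes tested the median was 0.05 and 51.8% lay above 0. The splicing members had a median of 0.08 with 6 of 12 above 0, and the 4 members of translation, storage and decay had -0.53 with 1 above 0. Within the nucleolar group Ddx54 had the lowest ratio, at the 2-fold limit towards replicate 2, Ddx21 had -0.89 and Ddx31 had the highest, 2.35. The difference between the roles was not tested, and the groups share members with other lists.

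**Figure D4:**
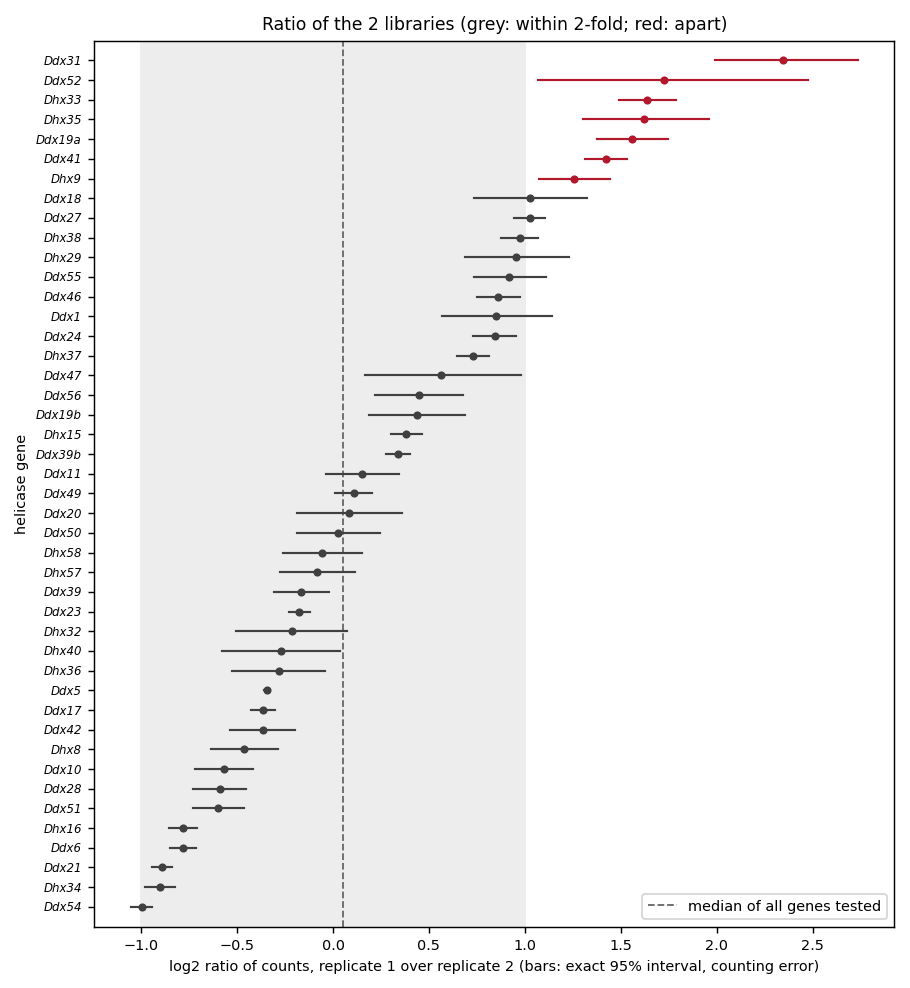
Log2 ratio of counts, replicate 1 over replicate 2 after TMM scaling, with exact 95% intervals for 44 helicase genes, sorted by ratio; Dhx30, with 0 counts in replicate 2, is not drawn. The 7 genes in red lie wholly above the grey band of 2-fold, from Dhx9 at 1.26 to Ddx31 at 2.35, and no gene lies wholly below it.

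The promoters of the family had many CpG dinucleotides. RefSeq start sites were found for 44 of the 50 genes, with 55 promoters of 250 bases upstream. The median number of CpG was 18, beside 6 over all 32851 promoters of the same length, and 85.5% had 10 or more, beside 37.8%. The motif TATAAA, searched on both strands, was present in 5.45% of the helicase promoters and 12.4% of all promoters, in Ddx5, Ddx17 and Ddx50. CCGGAAGT was present in 10.9% and 2.88%, CACGTG in 10.9% and 6.02%, and a pair of GAAA words with 2 bases between them in 5.45% and 2.98%. A match describes letters and not a bound site, and several promoters belong to the same gene.

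Genes at or near 0 included promoters with many and with few CpG, and those of Ddx4 and Ddx60 are shown as examples. That of Ddx4 (chr13:112652311-112652560, minus strand, GRCm38.p6) has 31 CpG, and capitals mark CACGTG. That of Ddx60 (chr8:61927837-61928086, plus strand, GRCm38.p6) has 5 CpG, and capitals mark its pairs of GAAA words, which occur in interferon-responsive elements.
Ddx4 promoter: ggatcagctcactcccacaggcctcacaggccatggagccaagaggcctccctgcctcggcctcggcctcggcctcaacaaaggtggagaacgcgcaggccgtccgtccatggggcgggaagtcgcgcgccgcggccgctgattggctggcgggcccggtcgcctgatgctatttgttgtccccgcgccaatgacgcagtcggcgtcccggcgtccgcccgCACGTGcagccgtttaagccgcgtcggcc
Ddx60 promoter: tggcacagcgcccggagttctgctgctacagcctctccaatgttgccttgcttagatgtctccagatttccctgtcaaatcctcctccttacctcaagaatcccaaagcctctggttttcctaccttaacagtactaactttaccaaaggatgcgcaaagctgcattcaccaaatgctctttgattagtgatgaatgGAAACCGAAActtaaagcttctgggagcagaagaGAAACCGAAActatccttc

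Genes that work with the helicases were transcribed as well. Their counts stand beside 42.8% of all genes at 1 TPM in both libraries, and beside 14.5% and 8.42% of all genes tested that were apart with the higher value in replicate 1 and in replicate 2. Of the DEAD box proteins under other symbols, all 3 reached 1 TPM in both libraries. Eif4a1, which unwinds mRNA leaders in translation initiation, had 398.26 TPM in replicate 1 and 216.55 TPM in replicate 2, and Eif4a3, the anchor of the exon junction complex, had 81.02 and 71.93 TPM. Eif4a2 had 11 and 1.23 TPM and was apart (log2 ratio 2.41, 1.89 to 2.99). Eif4a1 had 15.2% and 7.19% of its TPM on coding transcripts, so its coding level was 38.0 ± 31.7 TPM (SD, n = 2).

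Of 15 genes listed as other RNA helicases, 12 reached 1 TPM in both libraries, with a median of 14.2 TPM. The list includes Hltf (26.69 TPM in replicate 1 and 9.22 TPM in replicate 2), which is not an established RNA helicase. Upf1, the helicase of nonsense-mediated decay, led by gene TPM with 145.58 TPM in replicate 1 and 169.31 TPM in replicate 2. Helz had 109.66 and 97.09 TPM and Skiv2l, of the cytoplasmic exosome cofactor, had 50.63 and 52.35 TPM. Coding transcripts held all of the TPM of Upf1, 63.5% and 64.2% of that of Skiv2l, but only 13.0% and 12.2% of that of Helz. The mean coding level of Helz (13.1 TPM) was thus under that of Skiv2l (32.9 TPM). In this list 2 genes were apart, both higher in replicate 1.

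Of 15 partners in splicing and export, 12 reached 1 TPM, with a median of 31.2 TPM, and 3 were apart with the higher value in replicate 1 and 1 in replicate 2. Alyref, an export adaptor that binds Ddx39b, had 183.46 TPM in replicate 1 and 280.60 TPM in replicate 2 and was the one apart towards replicate 2 (log2 ratio -1.44, -1.51 to -1.38). Eftud2, a GTPase of the U5 snRNP, had 194.05 and 119.58 TPM, and Thoc6, of the THO complex, had 145.06 and 68.74 TPM. Coding transcripts held 67.5% of the TPM of Eftud2 in replicate 1 and 16.5% in replicate 2. For Thoc6 they held 80.0% and 77.4%.

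Of the 4 genes of the exon junction complex, 3 reached 1 TPM, with a median of 8.59 TPM and 0 apart. They were Casc3 with 38.00 and 32.34 TPM, Rbm8a with 17.04 and 6.81 TPM and Magoh with 8.96 and 1.55 TPM. Of the 10 partners of Ddx6, 9 reached 1 TPM, with a median of 10.9 TPM, and 3 were apart, all higher in replicate 1. The translation repressor Eif4enif1 led with 52.09 and 66.66 TPM, and the P body proteins Lsm14b and Lsm14a had 50.35 and 60.03 TPM and 22.71 and 27.66 TPM. In this list 7 of 10 genes had a scaled count ratio above 0, Eif4enif1 among them at 0.56, beside 51.8% of all genes tested. Lsm14b (-0.73), Lsm14a (-0.76) and Dcp2 (-0.28) lay below 0, as did Ddx6 with -0.78.

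Of the 7 genes of the SMN complex analysed besides Ddx20, 5 reached 1 TPM, with a median of 10.1 TPM. Smn1, its central subunit, had 77.32 TPM in replicate 1 and 155.96 TPM in replicate 2 and was apart (log2 ratio -1.62, -1.71 to -1.53), and Gemin2 was apart in the other direction (1.84, 1.11 to 2.71). Strap had 49.46 and 32.88 TPM and Gemin7 had 38.95 and 21.12 TPM. In the tRNA ligase complex with Ddx1 all 4 genes reached 1 TPM, with a median of 11.8 TPM and 1 apart. Rtraf had 364.98 and 204.93 TPM, Rtcb, the ligase, had 33.13 and 8.68 TPM and was the one apart, and Fam98b had 3.60 and 1.72 TPM.

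In the microRNA processing complex with which Ddx5 and Ddx17 associate, Drosha, the nuclease, had 697.67 TPM in replicate 1 and 442.78 TPM in replicate 2, and Dgcr8, its RNA-binding partner, had 8.46 and 3.47 TPM. The coding share of Drosha was 9.61% and 13.2% and that of Dgcr8 31.1% and 31.2%. Of the 4 listed partners with the highest mean TPM, Drosha, Eif4a1 and Alyref had most of their TPM on transcripts not annotated as coding in both libraries. Rtraf had all of it on coding ones. Of all genes at 1 TPM or more, 21.0% had a mean coding share under 50%. These 4 were picked by TPM, in which the same count weighs more on a shorter transcript, so no likeness to Ddx5 is read from them. The coding share of Alyref was 9.72% in replicate 1 and 17.9% in replicate 2.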

How the data were processed

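Each library has a gene table and a transcript table, quantified by the authors on mm10 against GENCODE M4, per the readme. The sources used here do not name the aligner or quantifier, and the columns are named as in RSEM. The deposited expected counts are estimates that can be fractional, and the authors' TPM is a length-corrected share of all rows. The deposited FPKM and the authors' posterior mean TPM served as alternatives. The deposited percent is what a transcript contributes to the TPM of its gene. GENCODE M21 gave symbols, positions and transcript types by identifier without version.

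Expected counts were rounded and scaled by TMM in edgeR 4.0.16 (R 4.3.3). Ratios used a prior count of 0.5 and exact Clopper-Pearson 95% intervals. DESeq2 1.42.0 gave alternative size factors. Calls of genes apart were tried on simulated data that held counting error only, which is what the interval assumes. The trial therefore does not cover other spread between libraries or the division of fragments between transcripts. Words of 25 bases were compared between M21 transcript sequences. Python 3.11.15, numpy 2.4.6, pandas 2.3.3, scipy 1.17.1 and matplotlib 3.10.9 were used. Promoters were RefSeq sequences of GRCm38.p6. Protein sequences were not used here, so the features planned on proteins (length, motif, identity) were not analysed.

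The members, roles and partner lists were chosen with earlier results of these data known. By rule the text names the 10 most abundant helicases, up to 3 per role, those apart, those under 1 TPM in both libraries, near-identical pairs and the 3 most abundant genes of each partner list. Other genes, the promoter motifs, the junctions and the settings based on coding transcripts were chosen after the values had been seen.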

Additional observations from a re-analysis of the deposited data

How the results depend on the processing

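No paired analysis was possible because the labels give 1 group. The number of helicases at 1 TPM or more was 43 in replicate 2 alone and 45 in replicate 1 alone. The median log2(TPM + 1) of 3.53 moved to 3.10 over protein-coding transcripts and to 3.97 without genes under a mean of 1 TPM, and ranged from 3.10 to 3.69 with 1 library left out. Helicases apart with the higher value in replicate 1 numbered 8, and became 16 with total-count scaling, 14 with the ratio of deposited TPM and 16 with a 1.5-fold limit. Those higher in replicate 2 numbered 0, and became 1 with the ratio of TPM and 5 with the 1.5-fold limit, and the median log2 ratio of 0.15 became 0.56 with total-count scaling and 0.63 with TPM. The cause of these changes was not tested. The median over all genes tested also moved, from 0.05 to 0.45 with total-count scaling and to 0.44 with TPM. The helicase median less that of all genes was 0.10 in the main setting, 0.10 with total-count scaling and 0.19 with TPM. The shares of Ddx5 by expected counts in place of TPM were 73.3% for Ddx5-205, 23.1% for Ddx5-203, 2.48% for Ddx5-206 and 0.399% for Ddx5-201, which follows from the correction for length. With 1 library left out these shares of TPM ranged from 58.81% to 59.21%, from 38.27% to 38.47%, from 1.87% to 2.22% and from 0.04% to 0.10%. Of the 50 gene levels, 11 moved by more than the spread of the libraries over protein-coding transcripts, 9 with TPM over nuclear protein-coding genes, 7 with counts over the longest coding transcript and 6 with posterior mean TPM. With 2 libraries an SD is itself imprecise.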
